A study of Mus musculus with 6 samples.

Results

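The 38 macrophage and myeloid genes described here were followed in mouse small intestine after deletion of Fitm2 (FIT2), an endoplasmic reticulum protein needed to form lipid droplets. They are a fixed list of symbols, chosen with earlier results of these data known, so their counts beside all genes are descriptions. For each gene the brightest probe set annotated to that gene alone was used. All 38 were among the 13042 genes kept for testing, out of 18193 genes with such a probe set. KO mice carried ROSA26CreERT2 together with the L/L alleles, and L/L mice carried the same alleles without Cre. Both genotypes were given 100 µg/g tamoxifen intraperitoneally on days 1, 2 and 3, and the whole flushed small intestine was collected on day 2, 3 or 5. The labels also describe the days of collection as days after tamoxifen, and from when days count is not stated. Whether animals killed on day 2 or 3 had the later injections is not stated either. Each of the 6 Affymetrix arrays held RNA pooled from 7, 6 and 7 KO mice on days 2, 3 and 5, or from 6, 6 and 8 L/L mice, so there is 1 array for each genotype and day and variation among individual mice is hidden. ROSA26CreERT2 is active in most cell types, myeloid cells included, and tamoxifen-activated Cre is present in KO alone, so loss of Fitm2 and activity of Cre cannot be told apart.

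Macrophages of the gut wall are replenished from blood monocytes and depend on signalling through Csf1r. They clear dying cells and microbes, make the complement component C1q, sense antibody through Fc receptors that signal by the adaptor Fcer1g, and degrade what they take up in lysosomes. The transcription factor Spi1 (PU.1) binds purine-rich sites in the control regions of many myeloid genes. Several of the 38 are also made by other cells of the intestine, such as dendritic cells, B cells or, for lysosomal genes, the epithelium. In RNA from whole intestine more cells of a type and more RNA per cell cannot be told apart.

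Fitm2 itself had intensities of 123, 127 and 119.6 in KO on days 2, 3 and 5, against 193, 223 and 211 in L/L, and was lower in KO on each day without passing limma's test over the 3 days (adjusted p = 0.125). The labels do not place its probe set inside or outside the deleted part. The median intensity of the arrays lay between 57.7 and 59.7. Xist, made by the inactive X chromosome of females, was at 1090.2, 3030.2 and 1398 in KO and 2433, 3126 and 3052 in L/L, so the pools of days 2 and 5 differed in it while those of day 3 were close. The part of this difference in the results below was not tested. Differences on single days are given apart, while both limma tests combine all 3 days. The defining macrophage receptors Csf1r, Adgre1, Mrc1 and Cx3cr1 were above the intensity threshold of 38.9 on all 6 arrays.

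The 3 C1q genes stand next to each other on chromosome 4 with no other gene of the annotation between them. The sequences upstream of C1qb and C1qc are printed with those of Cd68, Lyz2 and Lgmn (with 2 annotated starts), the 3 members that passed the test of the change with day. Each is the 250 bases before an annotated transcript start, from RefSeq on GRCm38.p6, read on the gene's strand. Capitals mark GAGGAA, a purine-rich sequence that Spi1 binds, or its reverse complement. The windows are chr4:136886201-136886450, chr4:136892915-136893164, chr11:69666171-69666420, chr10:117282273-117282522, chr12:102439093-102439342 and chr12:102439729-102439978, all on the minus strand.
C1qb: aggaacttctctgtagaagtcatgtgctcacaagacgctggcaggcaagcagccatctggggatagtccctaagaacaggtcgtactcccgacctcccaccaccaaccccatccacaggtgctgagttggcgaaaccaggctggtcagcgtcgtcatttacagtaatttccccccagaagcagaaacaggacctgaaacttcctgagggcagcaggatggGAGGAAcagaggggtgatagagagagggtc
C1qc: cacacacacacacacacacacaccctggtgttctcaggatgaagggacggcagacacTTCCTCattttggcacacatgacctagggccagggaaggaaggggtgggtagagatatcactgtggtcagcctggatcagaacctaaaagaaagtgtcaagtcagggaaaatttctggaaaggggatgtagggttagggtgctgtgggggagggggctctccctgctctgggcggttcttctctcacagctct
Cd68: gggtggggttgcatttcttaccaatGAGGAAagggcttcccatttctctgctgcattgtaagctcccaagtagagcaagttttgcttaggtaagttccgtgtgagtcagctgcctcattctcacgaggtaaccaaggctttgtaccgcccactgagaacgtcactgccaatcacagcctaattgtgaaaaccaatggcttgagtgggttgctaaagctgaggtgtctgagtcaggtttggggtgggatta
Lyz2: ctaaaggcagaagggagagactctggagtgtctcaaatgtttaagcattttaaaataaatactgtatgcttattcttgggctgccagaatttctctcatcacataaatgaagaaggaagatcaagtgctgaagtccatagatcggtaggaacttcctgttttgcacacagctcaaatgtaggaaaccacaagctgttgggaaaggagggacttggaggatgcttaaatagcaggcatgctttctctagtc
Lgmn start 1: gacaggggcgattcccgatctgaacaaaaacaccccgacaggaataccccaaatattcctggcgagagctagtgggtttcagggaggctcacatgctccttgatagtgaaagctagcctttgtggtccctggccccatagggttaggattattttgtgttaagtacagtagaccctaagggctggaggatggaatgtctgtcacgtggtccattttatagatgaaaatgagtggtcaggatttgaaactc
Lgmn start 2: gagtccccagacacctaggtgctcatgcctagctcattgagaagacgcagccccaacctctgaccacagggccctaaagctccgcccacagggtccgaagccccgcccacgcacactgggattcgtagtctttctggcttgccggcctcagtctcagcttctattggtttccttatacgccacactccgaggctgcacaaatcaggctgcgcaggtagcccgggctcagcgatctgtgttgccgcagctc

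A window was at hand for 28 of the 38 genes, and 13 of these (46.4%) held GAGGAA on either strand in at least 1 window, against 25.9% of all 27025 genes with a window. Counted per window, 15 of 34 windows of the myeloid genes (44.1%) and 23.3% of all 32851 windows held it. Among genes at least 1.5-fold higher in KO on day 5 it was found in 6 of 11, and among the other myeloid genes in 7 of 17. The longer form GAGGAAGT, which contains GAGGAA and was searched first, was in 1 of the 28 genes (3.57%), against 2.79% of all genes. These are matches of letters and not measured binding sites, and the windows of Lyz2 and Lgmn lack the 6 letters. Of the 3 members that passed the test of the change with day, Cd68 alone held them. Forms of the site without these letters were not searched.

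The myeloid genes differed little between KO and L/L on day 2 and more on day 5. Levels are deposited intensities on a linear scale, to be read within a gene and not between genes, and differences are on the log2 scale. The median log2 difference of the 38 genes, KO minus L/L, was 0.05, 0.18 and 0.45 on days 2, 3 and 5, against 0.01, -0.01 and 0.02 over all genes tested. On day 5, 17 of the 38 were at least 1.5-fold higher in KO, where 5.19% of all genes were, and 0 were at least 1.5-fold lower, where 3.1% were. The 17 were Lgmn, Lyz2, C1qa, C1qb, Ms4a6d, Mrc1, Cd68, Fcgr3, Cd14, Cd163, Csf1r, Ctss, Clec4n, C1qc, Ms4a6c, Fcer1g and Tyrobp. On day 3, C1qa alone was at least 1.5-fold higher in KO (background 1.1%) and no member was lower (background 0.506%). On day 2 none was higher (background 0.429%) and none lower (background 0.107%). With 1 array per genotype a single day has no replicate check, and with the L/L array of day 2 in place of that of day 5 the count of day 5 was 7 in place of 17. That exchange sets different days against each other as well as different genotypes, and its share over all genes was not computed.

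**Figure D1:**
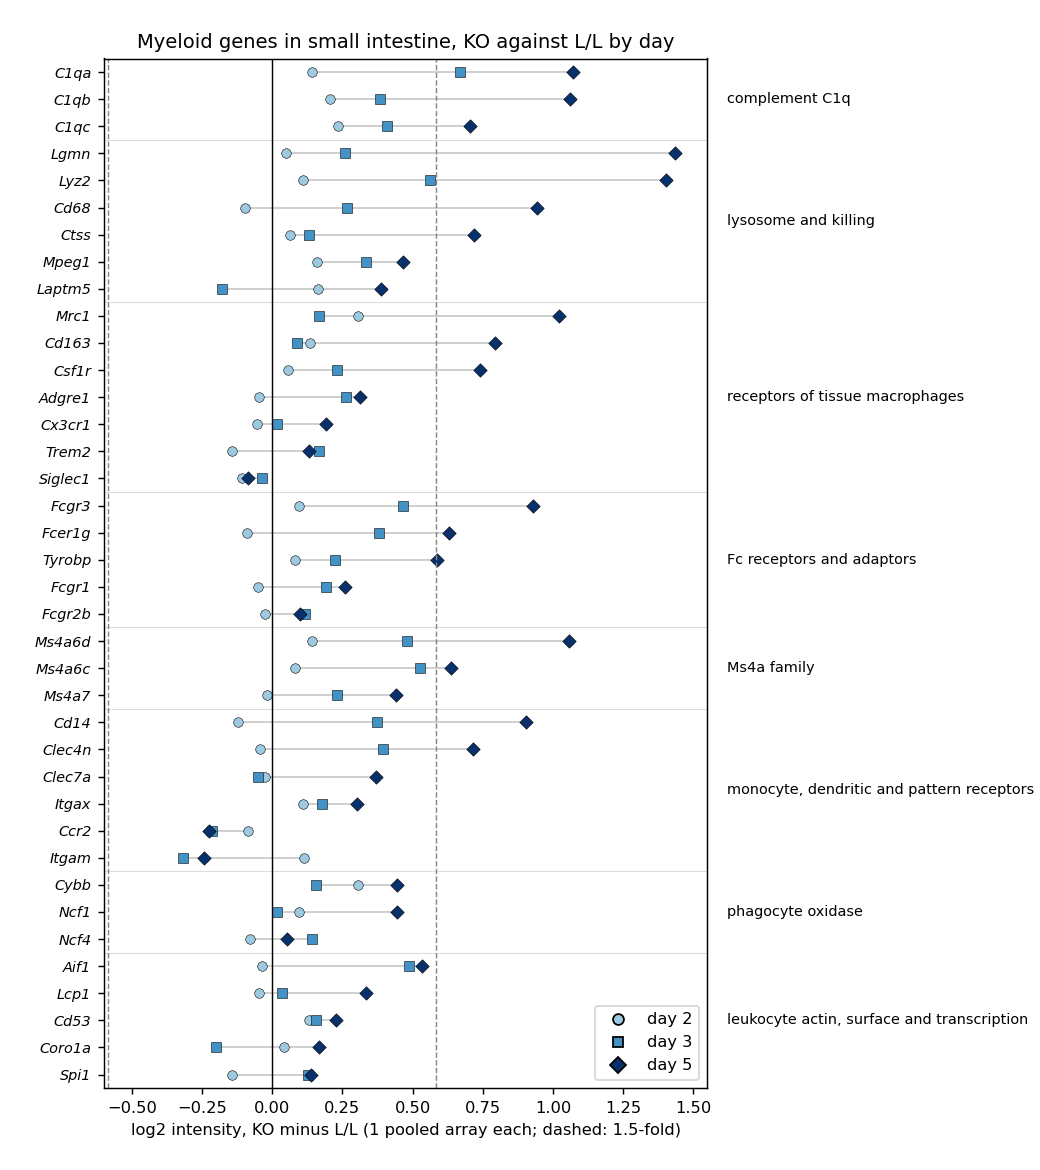
Log2 intensity of each of the 38 myeloid genes, KO minus L/L, on days 2, 3 and 5 (x axis), with genes in rows grouped by role and dashed lines at a 1.5-fold difference. Circles (day 2) all lie between the dashed lines, and 17 diamonds (day 5) lie past the right dashed line with none past the left.

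All 3 subunits of C1q, the recognition part of the classical complement pathway, were higher in KO on each day, and for each of them the KO arrays lay above all L/L arrays. C1qa had intensities of 492, 632 and 609 in KO on days 2, 3 and 5, against 447, 398 and 289.7 in L/L, a difference of 0.14, 0.67 and 1.07 on the log2 scale. C1qb was at 355, 405 and 438 in KO and 308, 310.2 and 209.7 in L/L, with differences of 0.21, 0.38 and 1.06. C1qc was at 302, 368 and 329 in KO and 257, 277 and 202 in L/L, with differences of 0.24, 0.41 and 0.70. In all 3 the KO arrays of days 3 and 5 were the highest of the 6 and the L/L array of day 5 the lowest. Their mean differences over the 3 days were 0.63 ± 0.47, 0.55 ± 0.45 and 0.45 ± 0.24 (SD over 3 days), which did not pass limma's test over all genes (adjusted p = 0.381, 0.384 and 0.381). That test takes the spread of the 3 daily differences as error, so a difference that grows with day widens the error. The other 2 C1qb probe sets above the threshold differed by 0.68 and 0.82 on day 5.

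Lysosomal and antimicrobial genes held the 3 members whose genotype difference changed with day past the threshold. Lyz2, the lysozyme of macrophages and other myeloid cells, had intensities of 1145, 1315 and 2300.5 in KO on days 2, 3 and 5, against 1062, 892 and 869 in L/L. Its KO arrays lay above all L/L arrays, the KO array of day 5 stood far above the rest, and on that day it was 2.65-fold higher in KO. Lgmn, a lysosomal cysteine protease, was at 401, 456 and 660.5 in KO and 388, 381 and 244 in L/L. The genotypes differed by 0.05 on the log2 scale on day 2, KO was 2.70-fold higher on day 5, and the KO arrays lay above all L/L arrays. Cd68, a glycoprotein of macrophage lysosomes, was at 60.2, 71.3 and 60.8 in KO and 64.4, 59.3 and 31.7 in L/L, so its day 5 difference of 0.94 came with a low L/L value and a KO value close to that of day 2. The L/L value of day 5 lay under the threshold of 38.9, and with it raised to the threshold the Cd68 difference was at least 0.64.

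For these 3 genes the difference KO minus L/L grew by 0.43 (SE 0.046), 0.48 (SE 0.060) and 0.35 (SE 0.046) on the log2 scale per day for Lyz2, Lgmn and Cd68 (limma, adjusted p = 0.0373, 0.0421 and 0.0454). Over all genes 0.644% grew and 0.583% declined past the same threshold, and 0 members declined. At an unadjusted p under 0.05, the difference grew in 20 of the 38 (background 10.6%) and 0 declined (background 7.87%). The p-values measure only the scatter of the 3 daily differences around a line, with 1 residual degree of freedom before moderation. With no filter on dim genes limma called none of the 3 (adjusted p = 0.169 for each), with days taken by rank it called Lyz2 alone (adjusted p = 0.070 for Lgmn and 0.060 for Cd68), and with dim values raised to the threshold Cd68 was lost (0.24 per day, adjusted p = 0.080).

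Of the other lysosomal members, Ctss, the cathepsin that trims the invariant chain in antigen presentation, was at 4549, 5456 and 7446 in KO and 4358, 4989 and 4521 in L/L, and only the KO array of day 5 stood clear of the others. Mpeg1, which encodes the pore-forming perforin-2, was at 470.0, 527 and 542 in KO and 421, 419 and 393 in L/L, with the KO arrays above all L/L arrays at a modest difference of 0.47 on day 5. Laptm5, a lysosomal membrane protein of leukocytes, differed by 0.16, -0.18 and 0.39 with a change of sign on day 3. Lyz1, the Paneth cell lysozyme and a close paralogue of Lyz2, was at 17404, 19659 and 23008 in KO and 15831, 16146 and 15271 in L/L, with a day 5 difference of 0.59 against 1.40 for Lyz2. Lyz1 lay high in the deposited range, whose highest value was 31146. Whether differences are reduced so high on the scale was not tested, so the 2 differences cannot be ranked. Cross-hybridisation between the 2 lysozymes was not tested.

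**Figure D2:**
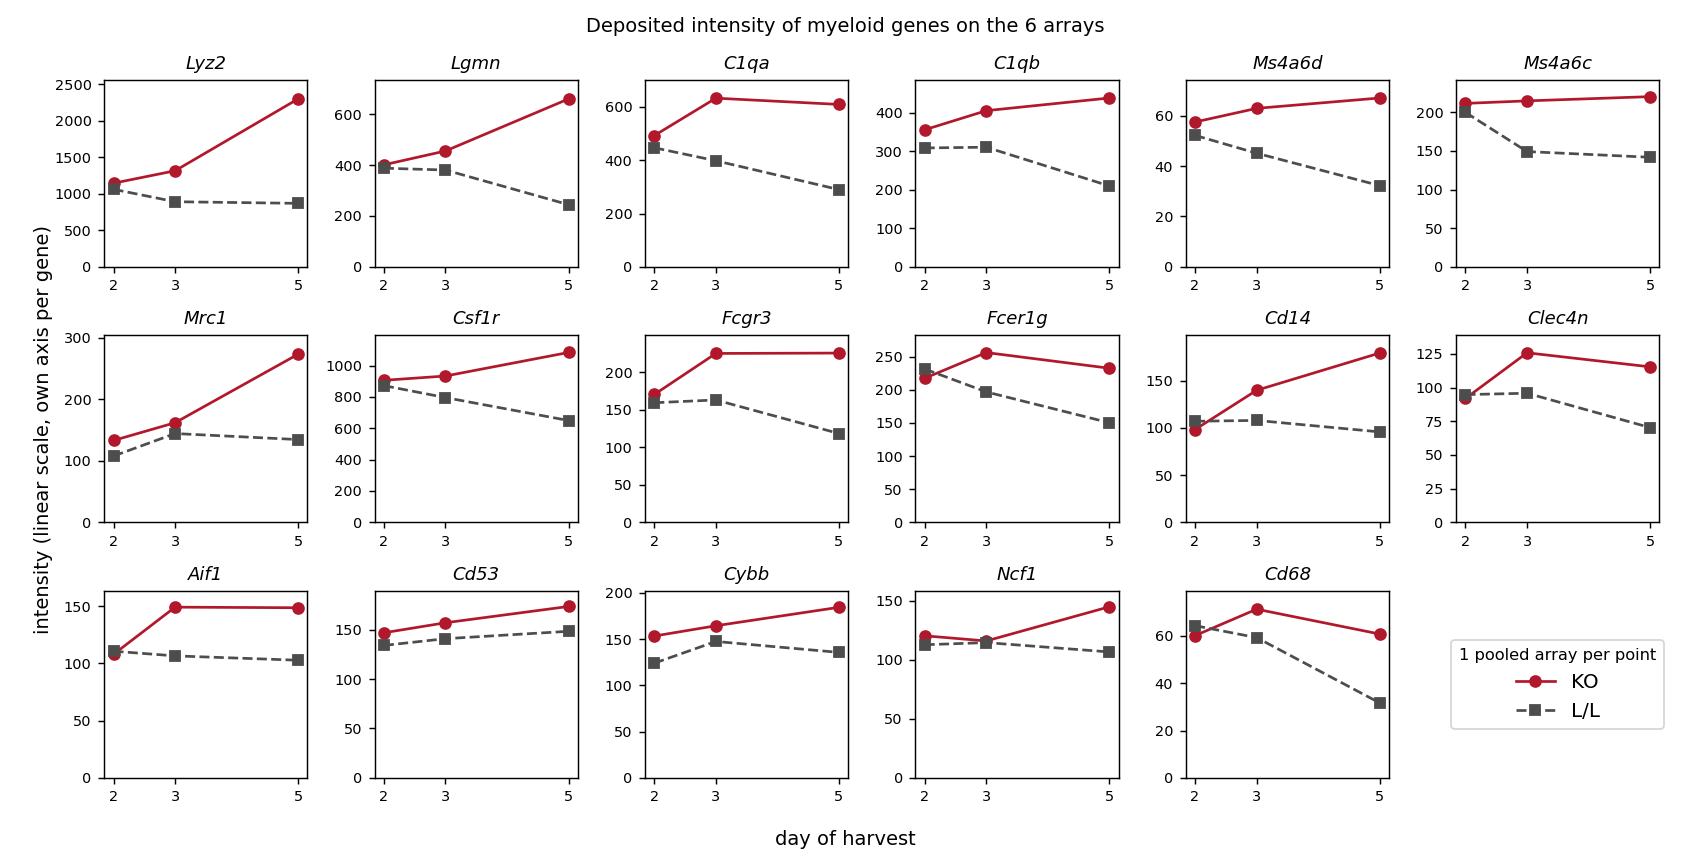
Deposited intensity (y axis, linear, starting at 0, with its own range per gene) of 17 myeloid genes by day of harvest (x axis) in KO (solid, red circles) and L/L (dashed, grey squares), 1 pooled array per point. The lines are close on day 2, and on day 5 the KO point is above the L/L point in each panel. The 17 were picked for the largest mean difference in their role or a called change with day, which favours such panels. Of all 38 genes, 35 were higher in KO on day 5, and Itgam, Ccr2 and Siglec1, not shown, were lower. Over all 13042 genes tested, 7038 were higher in KO on day 5.

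Receptors of tissue macrophages were uneven: Mrc1, Cd163 and Csf1r passed 1.5-fold on day 5, and the other 4 did not. Mrc1, the mannose receptor, had intensities of 133, 162 and 273 in KO on days 2, 3 and 5, against 108, 144 and 134 in L/L, a 2.03-fold difference on day 5. Csf1r, the receptor for the growth factors Csf1 and Il34, was at 906, 933 and 1084 in KO and 872, 796 and 649 in L/L, with each KO array above all L/L arrays and differences of 0.06, 0.23 and 0.74. Cd163, the haemoglobin scavenger receptor, was at 50.6, 63.3 and 141 in KO and 46.2, 59.5 and 81.2 in L/L, and its day 5 values were the highest of their genotype in both. Adgre1 (F4/80), Cx3cr1, the fractalkine receptor, and Trem2, a lipid-sensing receptor, differed by 0.31, 0.19 and 0.13 on day 5, with overlapping ranges of KO and L/L. Siglec1 (CD169), a sialic acid-binding receptor, was slightly lower in KO throughout, with differences of -0.11, -0.04 and -0.09. In this group limma gave Mrc1 and Csf1r mean differences of 0.50 ± 0.46 and 0.34 ± 0.36 (SD over 3 days, adjusted p = 0.394 and 0.410).

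Of the 5 Fc receptors and adaptors, Fcgr3, Fcer1g and Tyrobp passed 1.5-fold on day 5. Fcgr3, an activating receptor for IgG, was at 170.3, 225 and 225 in KO and 159, 163 and 118 in L/L, with the KO arrays above all L/L arrays. Fcer1g, the signalling chain that Fcgr3 and Fcgr1 need, was at 217, 256 and 233 in KO and 231, 197 and 150.3 in L/L, and the L/L value of day 2 exceeded the KO value of that day. Tyrobp (DAP12), the adaptor of Trem2 and related receptors, was at 400.4, 439 and 433 in KO and 379, 376 and 288 in L/L. The L/L array of day 5 was the lowest for all 3. Fcgr1, the high-affinity IgG receptor, and Fcgr2b, the inhibitory one, differed by 0.26 and 0.10 on day 5, with overlapping ranges.

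In the Ms4a family of membrane proteins, whose 3 members here are expressed by macrophages, Ms4a6d had intensities of 57.5, 62.9 and 67.0 in KO on days 2, 3 and 5, against 52.2, 45.1 and 32.2 in L/L. The L/L value of day 5 lay under the threshold, and with it raised to the threshold the Ms4a6d difference of that day was at least 0.78 in place of 1.06. Ms4a6c was at 211, 215 and 220.2 in KO and 199.8, 149 and 142 in L/L. The KO arrays lay above all L/L arrays for both, but a dimmer Ms4a6c probe set differed by -0.16, -0.10 and -0.27, so the 2 probe sets disagreed in direction. Ms4a7 differed by -0.02, 0.23 and 0.44 with overlapping ranges.

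Among receptors of monocytes, dendritic cells and microbial patterns, Cd14 and Clec4n were at least 1.5-fold higher in KO on day 5, and the monocyte receptor Ccr2 was lower. Cd14, the co-receptor for lipopolysaccharide, was at 98.4, 140.0 and 179 in KO and 107, 108 and 95.8 in L/L, with KO below L/L on day 2 and above it on days 3 and 5. Clec4n (dectin-2), a receptor for fungal mannans, was at 91.9, 126 and 115 in KO and 94.7, 95.8 and 70.3 in L/L. Clec7a (dectin-1), the receptor for fungal beta-glucan, differed by -0.03, -0.05 and 0.37, and Itgax (CD11c) by 0.11, 0.18 and 0.30 with its KO arrays above all L/L arrays.

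Ccr2, which brings monocytes out of the bone marrow towards Ccl2, was at 43.2, 38.6 and 41.2 in KO and 45.9, 44.8 and 48.2 in L/L. All KO arrays lay below all L/L arrays without passing limma's test over the 3 days (adjusted p = 0.399). Its values were near the threshold, and the KO value of day 3 was under it, so the difference of that day, -0.22 on the log2 scale, becomes -0.20 with that value raised to the threshold. Itgam (CD11b), an integrin of monocytes, macrophages and neutrophils, was at 57.3, 50.8 and 46.7 in KO and 52.9, 63.4 and 55.2 in L/L, lower in KO on days 3 and 5 and higher on day 2.

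The phagocyte oxidase makes superoxide, and none of its 3 members reached 1.5-fold on any day. Cybb, its catalytic subunit, was at 153, 164 and 184 in KO and 124, 147 and 136 in L/L, and Ncf1 (p47phox) was at 120.2, 116 and 145 in KO and 113, 114 and 107 in L/L. For both the KO arrays lay above all L/L arrays, for Ncf1 by a small margin whose sign on day 3 turned with cyclic loess (-0.0034), while Ncf4 (p40phox) differed by -0.08, 0.14 and 0.05 with overlapping ranges. Of the general leukocyte members, Aif1 (Iba1), an actin-binding protein of macrophages, was at 108, 149 and 149 in KO and 111, 107 and 103 in L/L. Cd53, a tetraspanin of leukocytes, was at 147, 157 and 174 in KO and 134, 141 and 148 in L/L, higher in KO by a nearly constant 0.13, 0.16 and 0.23. Lcp1 and Coro1a, which bind actin, and Spi1 differed by 0.33, 0.16 and 0.14 on day 5. The sign of all 3 changed between days.

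Over the 3 days together the test called no member. Limma called 3 genes higher in KO (0.023% of genes) and 0 lower (0.0%), none of them among the 38. At an unadjusted p under 0.05, 13 members were higher (background 7.68%) and Ccr2 was lower (background 4.61%). The 13 were C1qa, C1qb, C1qc, Mrc1, Fcgr3, Tyrobp, Itgax, Lyz2, Mpeg1, Ms4a6c, Ms4a6d, Cybb and Cd53. The count was 21 without day 2 and 3 without day 3. The median of the members' mean differences was 0.30, with an SD of 0.21 of the median over the 3 days, and 0.12 without day 5.

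Counted by array, 14 members had all KO arrays above all L/L arrays (background 7.48%), and Ccr2 had them all below (background 5.66%). Among markers of other cell types, all KO arrays lay above all L/L arrays for 7 of 8 endothelial and 4 of 5 Paneth cell genes. The same held for 1 of 7 fibroblast, 1 of 10 epithelial and 1 of 3 neutrophil genes, and for no gene of the other marker lists. Higher in KO on each day were 18 members (background 22.1% of genes), and lower on each day were Siglec1 and Ccr2 (background 17.4%). The genotype difference was larger on day 3 than on day 2 and larger again on day 5 in 25 members, against 21.4% of all genes. These counts share the same 6 arrays and are descriptions without a test.

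Within the genotypes the median of the members moved in opposite directions between day 2 and day 5. In KO their median log2 change was 0.24, with 33 of 38 above day 2, and in L/L it was -0.16, with 26 of 38 below day 2. Over all 13042 genes tested the medians were 0.002 in KO and -0.007 in L/L. Of all these genes, 6567 were above day 2 in KO and 6729 below it in L/L. Day 5 was above day 2 in KO and below it in L/L for 23 members, against 18.5% of all genes. The difference between the members' medians in KO and L/L was not tested. No p is given within a genotype, since each day has 1 array.

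In KO, 8 members were at least 1.5-fold higher on day 5 than on day 2 (background 4.63%), and 0 were lower (background 3.63%). Cd163 changed by 1.48, Mrc1 by 1.04, Lyz2 by 1.01, Cd14 by 0.87, Lgmn by 0.72, Ctss by 0.71, Laptm5 by 0.62 and Clec7a by 0.59 on the log2 scale. From day 3 to day 5 in KO, Mrc1, Cd163 and Lyz2 passed 1.5-fold upwards (background 2.95%) and 0 members passed it downwards (background 2.55%). From day 2 to day 3 in KO no member passed it upwards (background 0.675%) or downwards (background 0.445%).

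In L/L, 5 members were at least 1.5-fold lower on day 5 than on day 2 (background 1.77%), and Cd163 was higher (background 1.15%). Cd68 changed by -1.02, Ms4a6d by -0.69, Lgmn by -0.67, C1qa by -0.62 and Fcer1g by -0.62, and Cd163 by 0.81. Cd163 thus moved upwards in both genotypes, by more in KO. Between day 3 and day 5 in L/L, Cd68, Lgmn and Coro1a were at least 1.5-fold lower on day 5 (background 1.42%) and 0 were higher (background 0.552%). Between day 2 and day 3 in L/L none was higher (background 0.882%) or lower (background 0.736%). With 32 added to the intensities before log2 the L/L counts were 2 lower and 0 higher for day 5 against day 2, and 0 lower for day 5 against day 3.

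**Figure D3:**
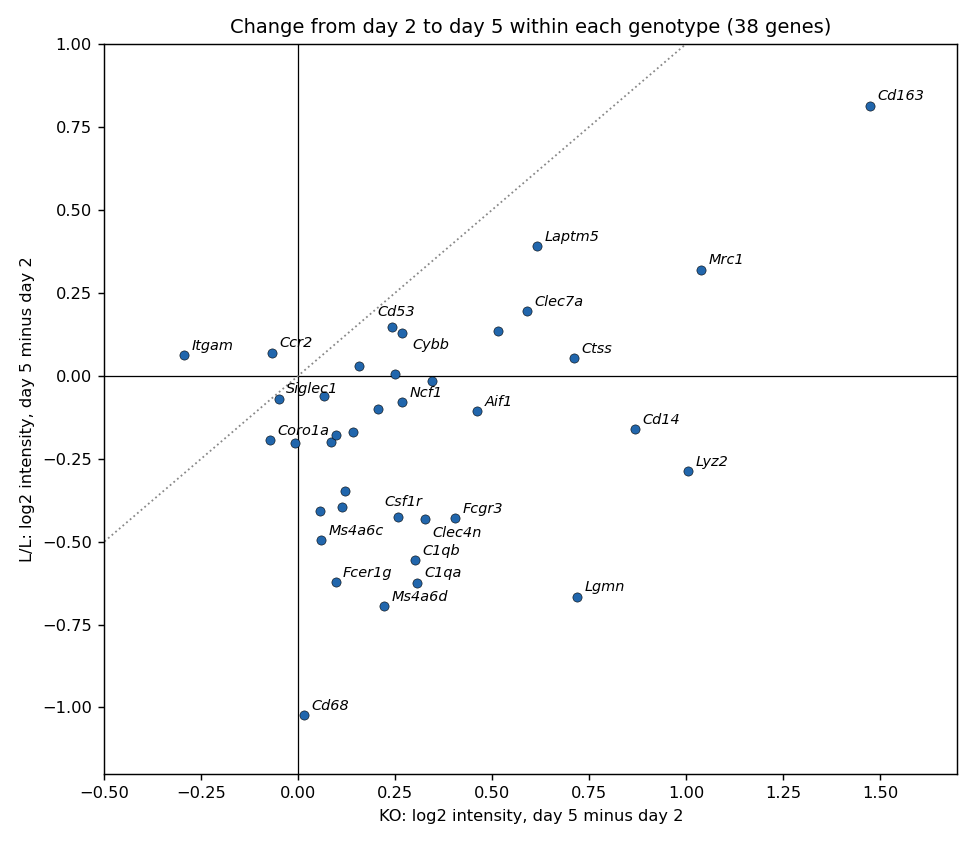
Log2 change in intensity from day 2 to day 5 in KO (x axis) and in L/L (y axis) for the 38 myeloid genes, 1 point per gene, with the dotted line where both are equal. Most points lie in the lower right, above day 2 in KO and below it in L/L, and Cd163 lies highest in both directions.

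Ligands of the members' receptors were mostly higher in KO on day 5. Of 8 listed, 7 were measured and 6 of these were higher, with medians of 0.13, 0.28 and 0.68, and 4 were at least 1.5-fold higher in KO on day 5. Ccl12, a monocyte chemokine that acts through Ccr2, was at 64.8, 66.4 and 74.8 in KO and 59.3, 37.3 and 27.3 in L/L, and its difference grew by 0.42 per day (limma, adjusted p = 0.0480), with the L/L values of days 3 and 5 under the threshold. Ccl2 was at 62.6, 81.5 and 57.1 in KO and 45.5, 43.0 and 28.9 in L/L, higher in KO on each day while its receptor gene Ccr2 was lower. The Ccl2 value in L/L on day 5 was under the threshold, and the Ccr2 values were near it. Ccl8 and Csf1, a growth factor of macrophages, differed by 0.83 and 0.68 on day 5.

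Of 40 further genes of macrophages and monocytes, 25 were measured, with medians of 0.01, 0.10 and 0.36. On day 5, 6 were at least 1.5-fold higher in KO and 0 lower, and limma called none in either test. Arg1, the arginase of alternatively activated macrophages, was at 30.5, 27.9 and 137 in KO and 32.8, 43.0 and 30.8 in L/L, above the threshold on the KO array of day 5 and the L/L array of day 3 alone. Fcgr4, Slc11a1 (Nramp1), a metal transporter of phagosomes, and the costimulatory ligand Cd86 differed by 0.78, 0.70 and 0.68. The 15 other lysosomal genes, which most cells express, had a day 5 median of 0.14 and none at 1.5-fold, with Ctsh, Npc1, Lipa and Ctsd at 0.57, 0.45, 0.41 and 0.31.

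Of 9 measured Toll-like receptors and partners, with a day 5 median of 0.10, Tlr1 was at 24.2, 38.8 and 67.5 in KO and 41.3, 47.6 and 35.9 in L/L. Its difference grew by 0.57 per day (limma, adjusted p = 0.0246), with 3 of its 6 values under the threshold. Myd88, Tlr4 and Tlr5 differed by 0.45, 0.43 and -0.27 on day 5. The 9 measured cytokines had a day 5 median of 0.16 and went both ways, with Ccl6 and Ccl9 at 0.67 and 0.43, and Il18, which the epithelium also makes, and Ccl5 at -0.74 and -0.50. The 3 other oxidase subunits had a day 5 median of 0.08, from 0.02 for Rac2 and 0.08 for Rac1 to 0.44 for Cyba.

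Markers of other cell types moved unequally beside the myeloid genes. The 10 measured genes shared by all leukocytes had medians of 0.00, 0.01 and 0.02, with none at 1.5-fold, and Ptprc (CD45), Itgb2, Cd37 and Arhgdib at -0.26, 0.24, 0.23 and 0.19 on day 5. T and NK cell genes (10 of 13 measured) had a day 5 median of -0.18, led by Cd3d, Nkg7, Cd4 and Cd8a at -0.36, -0.30, -0.25 and -0.24. B and plasma cell genes (5 of 8) had a day 5 median of 0.01, from -0.34 for Mzb1 to 0.20 for Jchain. Dendritic cell genes (5 of 8) had a day 5 median of -0.08, with Zbtb46 at -0.38 and Batf3 at 0.12. No gene of these lymphoid and dendritic lists reached 1.5-fold on day 5 in either direction.

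Of 10 neutrophil genes 3 were above the filter, and Ltf (lactoferrin), which neutrophils and some epithelia make, was at 50.5, 69.9 and 121 in KO and 49.9, 50.1 and 48.9 in L/L, with a difference that grew by 0.43 per day (limma, adjusted p = 0.0373). Elane and Camp differed by -0.09 and 0.02, and S100a8 and S100a9 were not among the genes kept. Of 8 eosinophil and mast cell genes, Mcpt2 and Kit were kept, at -0.72 and 0.00 on day 5, and 0 of 3 erythroid genes were kept.

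Medians of Paneth cell, endothelial and fibroblast genes were also higher in KO on day 5, and their part in the myeloid result was not tested. All 5 Paneth cell genes were at least 1.5-fold higher in KO on day 5, with medians of 0.14, 0.50 and 1.07 and a summed intensity of 27887, 31576 and 39179.6 in KO, against 23928, 24495 and 22851 in L/L. Itln1 and Mmp7 differed by 0.39, 0.93 and 1.16 and by 0.12, 0.50 and 1.00 on days 2, 3 and 5. Pla2g2a differed by -1.30, 1.53 and 1.07, lower in KO on day 2, with intensities of 569, 1382 and 230.0 in KO and 1397, 478 and 109 in L/L. Ang4 differed by 0.78, 0.02 and 1.07, so the list's members did not all follow the course of its median. The 8 endothelial genes had medians of 0.10, 0.32 and 0.56, with 3 past 1.5-fold on day 5 and a summed intensity of 1740.0, 1801 and 2084 in KO, against 1579.8, 1492 and 1368 in L/L. Plvap, Lyve1, which some gut macrophages also express, Pecam1 and Robo4 differed by 0.82, 0.74, 0.59 and 0.56 on day 5.

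The 7 fibroblast genes had medians of -0.02, 0.08 and 0.48, with a summed intensity of 11825, 11934 and 18101 in KO, against 11936, 11225 and 13118 in L/L, led by Pdgfra at 1.34 and Pdgfrb at 0.82, with Dcn and Col1a2 at 0.51 and 0.48. The 5 smooth muscle genes had a day 5 median of 0.18 and none at 1.5-fold, with Des, Myh11, Cnn1 and Acta2 at 0.48, 0.27, 0.18 and 0.11. The 10 measured epithelial genes had a day 5 median of 0.04, from -0.25 for Lct to 0.26 for Krt20, with Alpi at 0.17 and Apoa4 at 0.14. Most of these epithelial genes lay high on the intensity scale. Apoa1 was at the highest deposited intensity, 31146, in KO on day 3 and in L/L on day 2. Whether differences are reduced so high on the scale was not tested. No marker list but that of Paneth cells had all its measured genes past 1.5-fold on day 5.

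**Figure D4:**
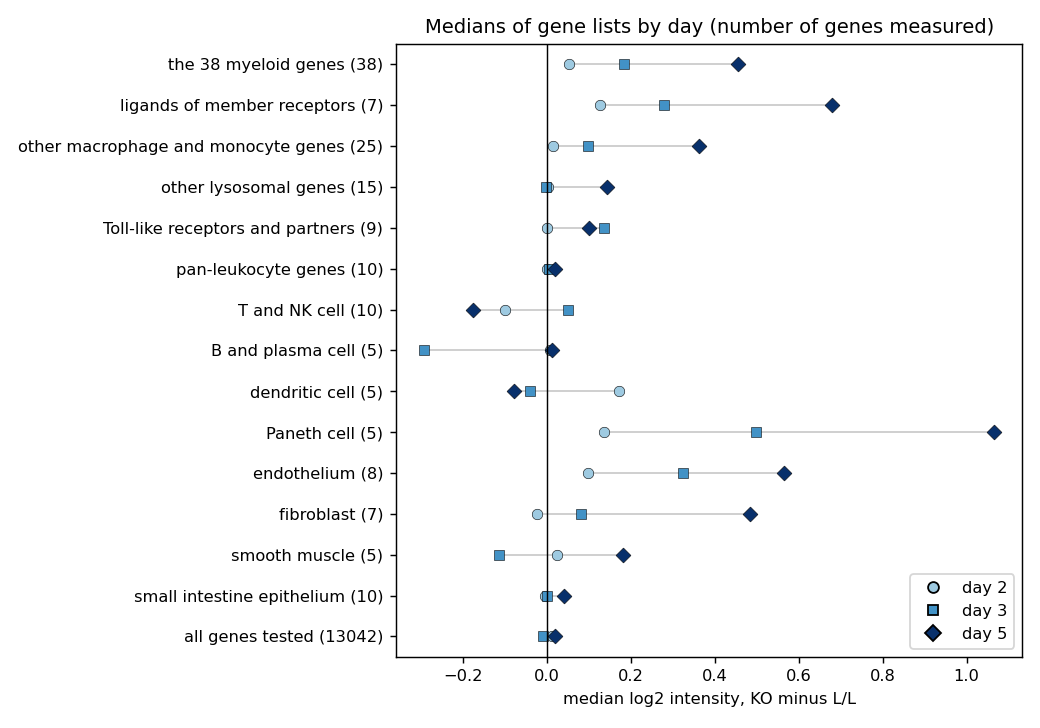
Median log2 intensity, KO minus L/L, of gene lists on days 2, 3 and 5 (x axis), with the number of measured genes beside each list. The day 5 median was 0.45 for the 38 myeloid genes, 0.68 for ligands of their receptors, 1.07 for Paneth cell genes, 0.56 for endothelium and 0.48 for fibroblasts, against 0.02 for pan-leukocyte genes and 0.02 for all genes tested.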

How the data were processed

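Small intestine RNA from 6 pools of mice was hybridised to Affymetrix 3' expression arrays. The deposited table gives 1 linear intensity per probe set (3.82 to 31146), made by the authors with Partek and RMA, per the submitters' processing notes, with no version or role given. Log2 was taken here with no pseudocount and no further normalization. The arrays give no detection call or depth, and their number limits the precision.

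Of 45101 probe sets (64 controls), 34945 had 1 gene in the platform annotation, 932 several and 9160 were not listed. Symbols of 34741 were updated to those of GRCm38.p6. Each gene was represented by its brightest single-gene probe set (mean log2 over the 6 arrays), and passed the filter above the 40th percentile of non-control probe sets (log2 5.28, intensity 38.9). The 38 members had 71 probe sets, 55 above that threshold, and 20 members had 1.

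Limma 3.58.1 in R 4.3.3 fitted all 13042 genes on all 6 arrays, two-sided, with Benjamini-Hochberg adjustment at 0.05. KO minus L/L had day as a factor (2 residual degrees of freedom, prior 3.03), and its change with day was the product of genotype and centred day (1 residual, prior 4.76). The fits were tested on simulated data. Single days and days within a genotype were not tested; a gene was counted at 1.5-fold. Values on every array are given for the 2 members of each of 8 roles with the largest mean difference and any member called, with further members shown for their role; of each other list, up to 4 genes with the largest day 5 difference. Members, roles and lists were chosen with earlier results of these data known.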

Additional observations from a re-analysis of the deposited data

Results flagged for a closer look

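The difference KO minus L/L grew with day, by limma's test, for Lgmn (0.48 per day on the log2 scale), Lyz2 (0.43) and Cd68 (0.35). The median change of the 38 genes between day 2 and day 5 was 0.24 in KO and -0.16 in L/L, with the opposite sign. Over all genes tested the medians were 0.002 and -0.007. The difference between the members' medians was not tested, as the members were chosen with results known.

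Of the 17 members with values on every array by rule, 14 went in opposite directions in the genotypes between day 2 and day 5. Mrc1 (1.04 in KO, 0.32 in L/L), Cybb (0.27 in KO, 0.13 in L/L) and Cd53 (0.24 in KO, 0.15 in L/L) moved upwards in both. The rule picked these 17 for a large genotype difference or a called change with day, so their count is not independent of the pattern. Over all 38, day 5 was above day 2 in KO and below it in L/L for 23, against 18.5% of all genes. The 7 with opposite signs and a change of at least 1.5-fold in 1 genotype follow. The share of all genes under that stricter rule was not computed. The change was 0.72 in KO and -0.67 in L/L for Lgmn, 1.01 in KO and -0.29 in L/L for Lyz2, and 0.015 in KO and -1.02 in L/L for Cd68. It was 0.31 in KO and -0.62 in L/L for C1qa, 0.22 in KO and -0.69 in L/L for Ms4a6d, 0.87 in KO and -0.16 in L/L for Cd14, and 0.10 in KO and -0.62 in L/L for Fcer1g. These pairs rest on 1 array at each point and were not tested as pairs; of the 7 genes, Lgmn, Lyz2 and Cd68 passed the test of the change with day.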

How the results depend on the processing

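The median of the members over the 3 days kept its sign in each setting, while counts have no direction to change. Of 781 values of single members under other settings 3 took the other sign: on day 2 with the mean of all probe sets Ms4a6c (-0.041, against 0.082) and Csf1r (-0.016, against 0.055), and on day 3 with cyclic loess Ncf1 (-0.0034, against 0.017). Of 196 values of the main results under other settings, 166 stayed within 1.5 times the count or 1 SD of the median. Many of the 166 are counts of 0 that stayed 0, and a 0 at 1.5-fold cannot rise at 2-fold. The genes called over the 3 days numbered 3, against 1 with the mean of all probe sets, 1 without day 2, 0 without day 3 and 6 with a linear day term. The members higher at an unadjusted p under 0.05 numbered 13, against 21 without day 2 and 3 without day 3. For the change with day, 160 genes and 3 members were called, against 0 and 0 with no filter, 275 and 5 (of 27 kept members) with a filter at the 60th percentile, 550 and 9 with 32 added before log2, 512 and 10 with the trend and robust settings of eBayes, and 63 and 1 with days by rank. Cyclic loess gave 5 members. The members at 1.5-fold on day 3 numbered 1, against 2 with cyclic loess, 0 at 2-fold and 12 at a minimum of 25% higher. On day 5 they numbered 17, against 6 at 2-fold, and 7 with the L/L array of day 2 in place of that of day 5, a setting chosen after seeing the data. At 2-fold the counts within KO were 1 for day 5 against day 3, in place of 3, and 3 for day 5 against day 2, in place of 8. Within L/L the lower members numbered 3 for day 5 against day 3 and 5 for day 5 against day 2. With 32 added before log2 they were 0 and 2, and at 2-fold 0 and 1. The 1 member higher in L/L on day 5 against day 2 became 0 in both. For counts of members at a fold, the shares of all genes under these other settings were not computed. The causes were not tested, apart from the stricter or looser fold itself. The median over the 3 days was 0.30, and between 0.12 (without day 5) and 0.37 (without day 2) in the other settings. Without a day, 1 array per genotype and 2 days remain. Adjusted p over the settings lay between 0.0052 and 0.169 for Lyz2, 0.0081 and 0.169 for Lgmn, and 0.031 and 0.169 for Cd68. No paired analysis was possible because each genotype and day has 1 array and no replicate number links arrays beyond the day, which is in both fits.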

Other observations

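Members with several probe sets did not always move together. In 10 members another 17 probe sets lay above the threshold, and 13 of these had the sign of the brightest on day 5, 11 on day 3 and 10 on day 2. For Fcgr2b, the inhibitory IgG receptor, the brightest probe set differed by 0.10 on day 5, KO minus L/L, and the other 3 by 0.43, 0.79 and 0.38. For Fcgr1, the high-affinity IgG receptor, the brightest differed by 0.26 and the other by 0.82. For Csf1r the other 2 differed by 0.73 and 0.37, beside 0.74 for the brightest. For Ms4a6c the other was lower in KO on all 3 days, and for Lcp1 the other differed by -0.08 on day 5, beside 0.33. Which probe set follows which transcript was not tested.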
